A study of Homo sapiens with 5 samples.

Results

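The genes described here are 10 scaffold and actin-linking genes of the focal adhesion, namely NEDD9, BCAR1, PTK2, PXN, TLN1, VCL, FLNA, ACTN1, TES and ZYX, out of 64837 gene entries in the count tables. They were taken by symbol from the gene names of the deposited comparison table and joined by gene identifier to the counts of each library. ZYX was not paired with a name there and was matched through GENCODE release 29. The choice was made with values of this comparison known, so the levels of these 10 genes are given as a description, without a test. The libraries came from NCI-H209, an established human small-cell lung cancer (SCLC) line grown in RPMI-1640 with 10% fetal bovine serum. The control group was 3 untreated samples. The co-cultured group was 2 samples of cells kept for 24 h with human brain microvascular endothelial cells (HBMECs) across a Transwell membrane, so that medium but not cells was shared. All libraries came from 1 cell line, and the labels do not say whether the samples of a group were separate cultures, so p-values measure the spread between these samples only.

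Focal adhesions are the plaques through which a cell holds the matrix outside it. Integrins span the membrane, talin and kindlin bind the integrin tails, vinculin, filamin and alpha-actinin tie the complex to actin filaments, and focal adhesion kinase, paxillin and the Cas proteins carry signals from it. Testin and zyxin are LIM domain proteins that gather where actin is under tension. SCLC lines such as NCI-H209 mostly grow in suspension, with few such plaques.

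Promoter sequences from RefSeq on GRCh38.p14 are shown for NEDD9, which had the largest difference among the 10 genes, for VCL, whose window held a TEAD motif, and for the genes whose promoters held a CArG box, the site bound by serum response factor, a known regulator of actin cytoskeleton genes. Windows of 250 bases before each annotated start were searched on both strands for the CArG box, for ACGTG (the core bound by hypoxia-inducible factors), for TGANTCA (AP-1) and for GGAATG (TEAD). The table held 20 windows for 9 of the 10 genes, and PTK2 had no entry. Both NEDD9 windows below, 1 for each of 2 alternative starts, lie on the minus strand and held none of the 4 motifs, while VCL, on the plus strand, held GGAATG. Capitals mark GGAATG in the VCL window and the CArG box in the 3 short stretches, of which that of TES also holds a GGAATG that overlaps the end of the box and is not marked. Each sequence reads 5′ to 3′ along the strand of its gene.
NEDD9 window at chr6:11382349-11382598: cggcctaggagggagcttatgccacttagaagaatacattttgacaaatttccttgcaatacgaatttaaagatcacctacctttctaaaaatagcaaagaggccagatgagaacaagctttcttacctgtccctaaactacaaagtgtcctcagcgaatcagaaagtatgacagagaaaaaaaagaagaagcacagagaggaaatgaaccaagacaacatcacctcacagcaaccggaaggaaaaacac
NEDD9 window at chr6:11232669-11232918: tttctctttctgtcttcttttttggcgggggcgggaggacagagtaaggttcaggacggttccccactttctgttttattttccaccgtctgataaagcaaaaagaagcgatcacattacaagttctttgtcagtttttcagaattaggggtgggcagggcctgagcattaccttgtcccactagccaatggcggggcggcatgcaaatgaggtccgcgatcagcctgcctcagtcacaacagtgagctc
VCL window at chr10:73997866-73998115: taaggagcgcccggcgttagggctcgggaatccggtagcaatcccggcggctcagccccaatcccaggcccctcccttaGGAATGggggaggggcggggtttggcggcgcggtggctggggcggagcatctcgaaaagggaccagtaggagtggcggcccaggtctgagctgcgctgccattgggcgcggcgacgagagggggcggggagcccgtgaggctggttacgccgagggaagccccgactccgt
TES CArG box at chr7:116222703-116222730: acacaagaCCAAATTAGGaatggttgcc
ACTN1 CArG box at chr14:68977718-68977747: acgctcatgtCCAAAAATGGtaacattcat
FLNA CArG box at chrX:154374709-154374738: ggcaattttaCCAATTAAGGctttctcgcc
The boxes of TES, ACTN1 and FLNA ended 233, 162 and 85 bases before a start. A CArG box was in 3 of the 20 windows, against 1.16% of 35116 promoter windows of the same length. ACGTG was in 2 windows, of BCAR1 and of another NEDD9 start, against 18.5% of all windows, TGANTCA in 1, of BCAR1, against 6.57%, and GGAATG in 4, of ACTN1, PXN, TES and VCL, against 11.9%. A match is only a description of the letters, and counts per gene do not tell which start was used.

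The libraries held 15457071 to 19157348 counts on genes. In CPM (counts scaled to a common, TMM-normalised library size), 3 counts corresponded to 0.154 to 0.198. Between 8.13% and 8.48% of reads were unmapped in control, against 16.8% and 15.9% after co-culture, and the part of this in the values below was not tested. Of 16 endothelial marker genes, 6 stayed at or under 3 counts throughout, and MMRN1 and PLVAP were at 0 in all. The summed level of the 16 ranged from 9.58 to 21.0 CPM in control and was 13.1 and 13.2 CPM after co-culture, and ESAM, at 0.229 and 1.04 CPM, was the only 1 of them called. Summed levels of 10 fibroblast and pericyte markers ranged from 11.0 to 24.6 CPM in control and were 17.9 and 21.2 CPM after co-culture, with RGS5, a pericyte gene, called higher and POSTN lower. RGS5 made up most of this level after co-culture, and without it the sums were 11.7, 11.0 and 1.54 CPM in control and 2.73 and 4.10 CPM after co-culture. Control replicates 1 and 2 thus stood above the other 3 libraries, as in the 27, 39 and 0 counts of DCN and the 34, 30 and 0 counts of PDGFRB in control. After co-culture DCN had 3 and 1 counts and PDGFRB 1 and 2. The endothelial receptor FLT1 had 30, 28 and 0 counts in control and 1 and 1 after co-culture, and the part of these reads in the values below was not tested. The 13 neuroendocrine markers summed to 2314 to 2947 CPM in control and to 3053 and 3217 CPM after co-culture, with SYP and NCAM1 abundant, but CHGA, a defining granule protein, reached no more than 1 count.

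In the fit across all genes, 3750 of 20360 genes were called higher in co-cultured cells at an adjusted p under 0.05 (18.4%) and 3059 lower (15.0%) (quasi-likelihood test of edgeR, Benjamini-Hochberg). With upper-quartile normalisation the split was 3076 higher and 3929 lower. Without co-cultured replicate 1 the counts were 1749 and 985, without co-cultured replicate 2 they were 1910 and 1113, and without control replicate 1 the number lower was 4602. Of the 10 genes, 9 passed the filter on low counts, 7 of them were called higher and none lower, and NEDD9 and TES also met the criterion of the study, a fold change over 1 in absolute value with p under 0.05, read here as a log2 fold change and an unadjusted p, which 5.44% of all genes met upward. The same 7 genes had groups that did not overlap, higher after co-culture, as did 29.4% of all genes. Of the 7 calls, 4 remained under upper-quartile normalisation, with those of ACTN1, BCAR1 and FLNA lost. The calls of ACTN1, FLNA and TLN1 were lost without control replicate 2, and those of ACTN1, BCAR1, FLNA and TLN1 without control replicate 3, without co-cultured replicate 1 and without co-cultured replicate 2. Since the genes were chosen on this contrast, nothing is read from these counts.

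**Figure D1:**
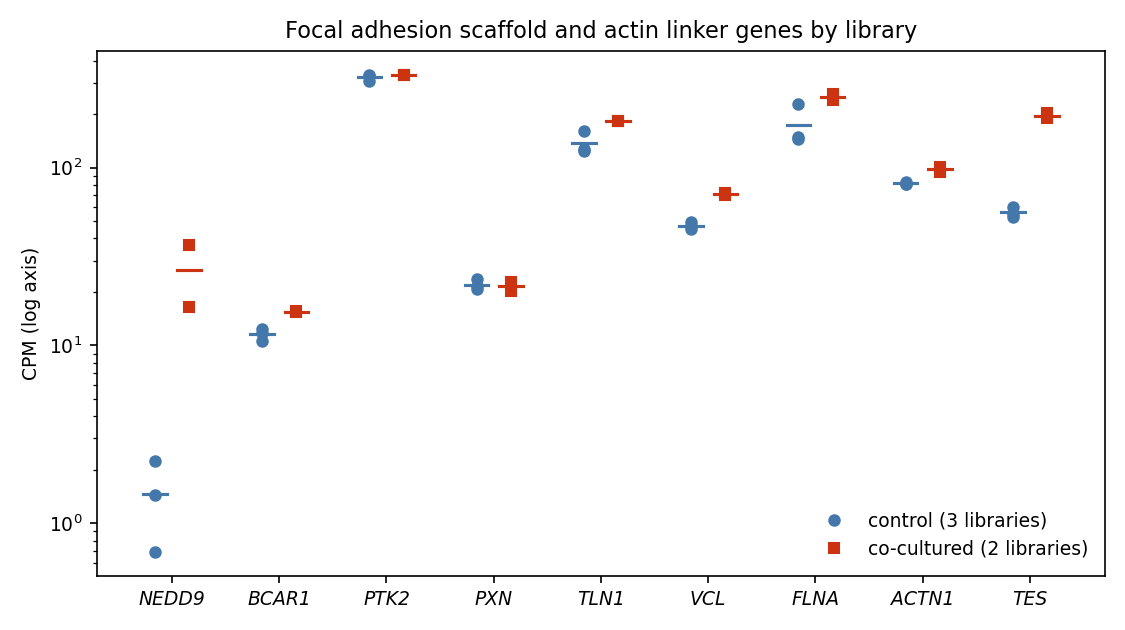
CPM of the 9 genes with enough counts in every library, on a log axis, with control libraries as circles, co-cultured libraries as squares and group means as lines. NEDD9 lies between 0.691 and 2.25 CPM in control and at 36.6 and 16.5 CPM after co-culture, and only PTK2 and PXN overlap between the groups.

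The pair of Cas scaffolds, NEDD9 and BCAR1, both stood higher in the co-cultured cells, by very different amounts. NEDD9, also called HEF1 or CasL, is a docking protein that focal adhesion kinase and Src family kinases phosphorylate, known for its part in cell migration. It lies at chr6:11183298-11382348 on the minus strand. Its counts were 13, 26 and 44 in control against 670 and 250 after co-culture, or 0.691, 1.44 and 2.25 CPM against 36.6 and 16.5 CPM. Every co-cultured library was above every control library, but the libraries within each group also differed, with control replicate 3 above control replicate 1 and co-cultured replicate 1 well above co-cultured replicate 2. The means were 1.46 ± 0.781 and 26.6 ± 14.2 CPM (SD, n = 3 and n = 2), which gave a log2 fold change of 4.18 (standard error 0.41). It was 3.50 without co-cultured replicate 1 and 4.65 without control replicate 3.

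BCAR1, the founding Cas protein p130Cas, lies at chr16:75228187-75268053 on the minus strand. Its CPM was 11.7, 12.4 and 10.7 in control and 15.6 and 15.4 after co-culture. The groups did not overlap, and the log2 fold change was 0.42 (standard error 0.12), from 11.6 ± 0.874 to 15.5 ± 0.170 CPM (SD, n = 3 and n = 2). Per kilobase of exon, BCAR1 stood 19.1, 9.72 and 5.34 times above NEDD9 in the control libraries, and the ratio was 0.482 and 1.05 in the co-cultured libraries. Of the summed CPM per kilobase of the pair, NEDD9 thus made up 4.98%, 9.33% and 15.8% in control and 67.5% and 48.7% after co-culture. NEDD9 was thus below BCAR1 in every control library, above it in co-cultured replicate 1 and close to it in co-cultured replicate 2.

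Focal adhesion kinase and paxillin, which sit beside the Cas proteins in the plaque, differed little. PTK2, the gene of focal adhesion kinase, is at chr8:140657900-141002216 on the minus strand and was the most abundant of the 10 genes in control both in CPM and per kilobase. Its CPM was 308.6, 333.3 and 329.8 in control and 331.3 and 333.8 after co-culture. The groups overlapped, with a log2 fold change of 0.04 (standard error 0.08) that was -0.04 under upper-quartile normalisation. PXN, the gene of paxillin, an adaptor whose motifs bind vinculin and focal adhesion kinase, is at chr12:120210439-120265771 on the minus strand. It had 21.6, 20.7 and 23.6 CPM in control and 22.8 and 20.4 CPM after co-culture, again overlapping, with a log2 fold change of -0.03 (standard error 0.11). Neither value shows that these genes did not change, only that any difference was within the spread between libraries.

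Talin and vinculin, which form the load-bearing link from integrin to actin, were both higher after co-culture. TLN1, whose product binds the integrin tail and opens the receptor, is at chr9:35696948-35732395 on the minus strand. Its CPM was 161.1, 123.9 and 127.2 in control and 184.0 and 182.7 after co-culture, a log2 fold change of 0.42 (standard error 0.11). The co-cultured libraries lay close together above all 3 controls, of which replicate 1 was the highest. VCL, whose product binds stretched talin, is at chr10:73995193-74121363 on the plus strand. It had 49.2, 47.2 and 45.4 CPM in control and 72.0 and 70.6 CPM after co-culture, a log2 fold change of 0.59 (standard error 0.08), and 0.52 under upper-quartile normalisation. The gap between its groups was many times the spread within them.

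The actin crosslinkers showed smaller or less even differences. FLNA, the gene of filamin A, which joins actin filaments into a mesh and binds integrin tails, is at chrX:154348524-154374638 on the minus strand. Its CPM was 226.9, 145.6 and 148.0 in control and 258.7 and 239.8 after co-culture. Control replicate 1 stood nearer to the co-cultured libraries than to the other controls, and the log2 fold change of 0.52 (standard error 0.17) was 0.77 without it. ACTN1, the gene of alpha-actinin-1, a crosslinker of parallel filaments, is at chr14:68874143-68979440 on the minus strand. It had 81.1, 83.3 and 80.6 CPM in control and 101.4 and 94.3 CPM after co-culture, groups that did not overlap, with a log2 fold change of 0.26 (standard error 0.08) that was 0.18 under upper-quartile normalisation.

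TES, the gene of testin, was the second gene with a large difference. Testin is a LIM domain protein of focal adhesions and stress fibres that binds zyxin and talin, and it is known as a candidate tumor suppressor. The gene is at chr7:116210493-116258783 on the plus strand. Its CPM was 60.0, 52.9 and 55.0 in control and 202.1 and 190.6 after co-culture. Libraries within each group were close, and the means of 56.0 ± 3.66 and 196.3 ± 8.16 CPM (SD, n = 3 and n = 2) gave a 3.51-fold difference, a log2 fold change of 1.81 (standard error 0.08). With each library left out in turn it ran from 1.77 to 1.87.

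ZYX, the gene of zyxin, a LIM protein that recruits actin assembly factors, is at chr7:143381080-143391111 on the plus strand. It had 0, 1 and 0 counts in control and 0 and 0 after co-culture, and was not fitted. A count near 0 in these files need not mean a silent gene, since reads that match more than 1 place in the index are left out of such gene counts. The alpha-actinin paralog ACTN4 was likewise listed at 2, 1 and 0 counts in control and 0 and 0 after co-culture. EPHA1, which overlaps ZYX, was at 0 in every library, while CASP2 nearby had 1730 to 1862 counts in control and 1378 and 1041 after co-culture. Whether reads of ZYX were lost in this way was not tested, and no level of ZYX is read from these files.

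**Figure D2:**
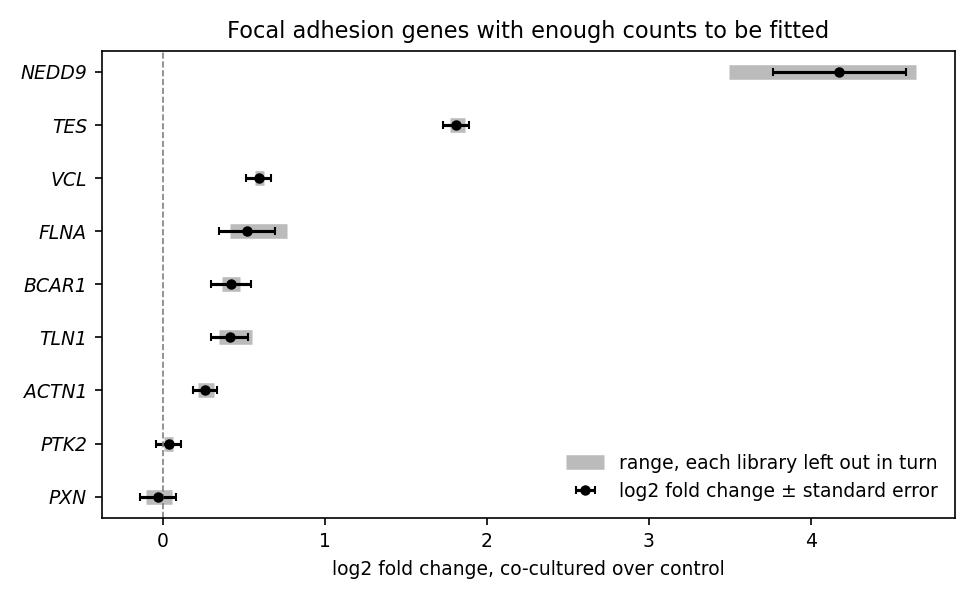
Co-cultured against control cells, as log2 fold changes, for the 9 genes fitted, with the standard error as a black bar and the range with each library left out in grey. NEDD9 at 4.18 and TES at 1.81 stand apart from the other 7 genes, which run from -0.03 for PXN to 0.59 for VCL.

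Levels can be ordered between genes only per kilobase of exon. In control cells the order of the mean CPM per kilobase was PTK2 at 23.6, FLNA at 16.4, TLN1 at 13.6, TES at 13.1, ACTN1 at 7.68, VCL at 4.73, PXN at 2.95, BCAR1 at 1.26 and NEDD9 at 0.141. FLNA overlapped both TLN1 and TES in its single libraries, and TLN1 overlapped TES, so the order of FLNA, TLN1 and TES in control is not told. After co-culture TES came first at 45.9, followed by PTK2 at 24.2, FLNA at 23.5, TLN1 at 18.2, ACTN1 at 9.21, VCL at 7.14, PXN at 2.89, NEDD9 at 2.56 and BCAR1 at 1.69. Here PTK2 overlapped FLNA, PXN overlapped NEDD9 and NEDD9 overlapped BCAR1, so these neighbours are not told apart. By mean, TES thus moved from the fourth place, not told apart from FLNA and TLN1, to the first. NEDD9 joined PXN and BCAR1 at the low end. Lengths were those of all annotated exons joined, which can misstate genes with many isoforms.

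**Figure D3:**
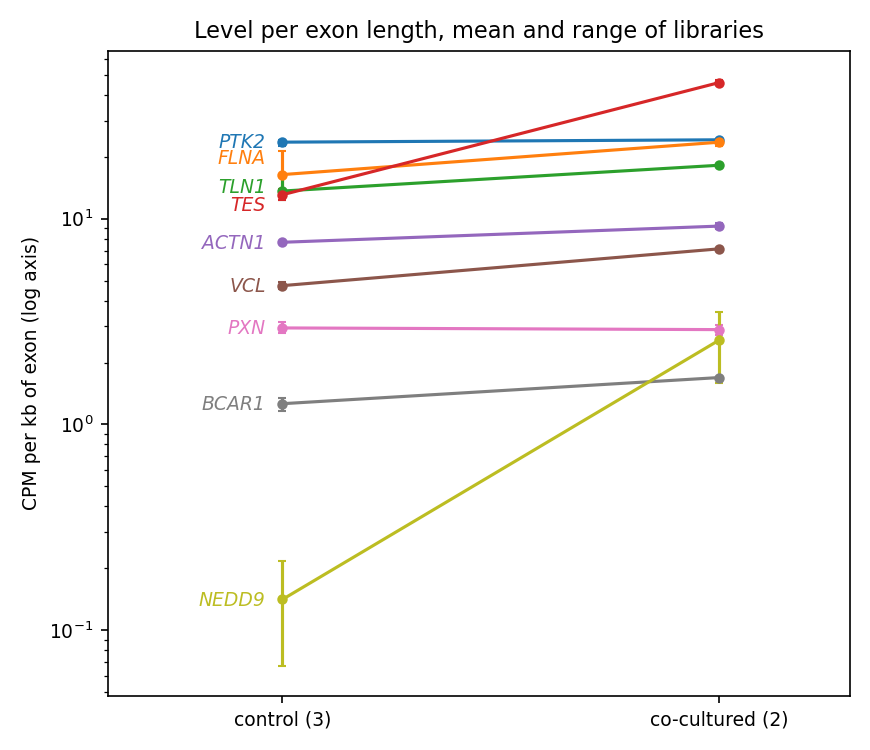
Mean CPM per kilobase of exon of the 9 fitted genes in control and co-cultured cells, joined by a line for each gene, on a log axis, with bars for the range of the libraries. The line of TES climbs from 13.1 to 45.9 and crosses that of PTK2, and the line of NEDD9 climbs from 0.141 to 2.56 and crosses that of BCAR1.

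Reads on the strand opposite to a gene were counted in the same files. For NEDD9 they numbered 43, 33 and 54 in control and 28 and 29 after co-culture, which was 76.8%, 55.9% and 55.1% of its reads in control and 4.01% and 10.4% after co-culture. In raw counts, not scaled to library size, the opposite strand thus held somewhat fewer reads in both co-cultured libraries, while the NEDD9 strand held far more. Co-cultured replicate 2 was also the smallest library, at 15457071 counts on genes, so no lower level of the opposite strand is read from these counts. The source of the opposite-strand reads was not tested. AL139807.1, an annotated gene that overlaps NEDD9 on the other strand, reached no more than 5 counts. With counts taken regardless of strand, the NEDD9 log2 fold change was 2.97. For PXN the opposite strand took 24.2% to 28.0% in control and 13.8% and 15.4% after co-culture, and its antisense neighbour PXN-AS1 itself had 111, 100 and 89 counts in control and 61 and 42 after co-culture. VCL had 21.6% to 23.1% in control and 16.2% and 15.5% after co-culture, beside the overlapping AP3M1 on the other strand. PTK2 had at most 1.89%, FLNA at most 1.57% and TES at most 0.209%.

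**Figure D4:**
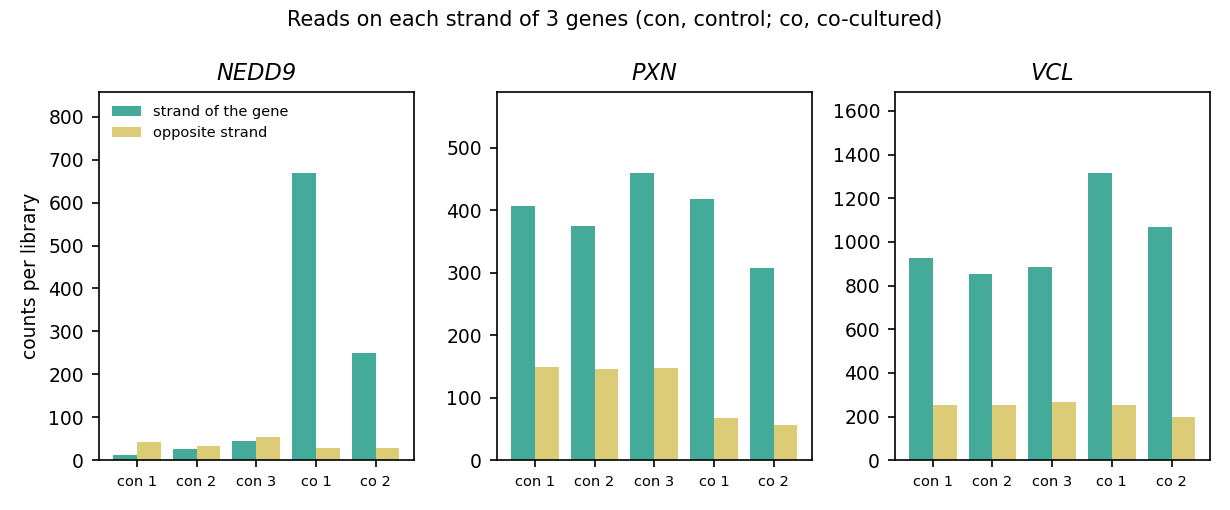
Counts on the strand of NEDD9, PXN and VCL and on the opposite strand in each of the 5 libraries, as bars that start at 0. For NEDD9 the opposite strand holds 28 to 54 counts in every library, while its own strand goes from 13 to 44 counts in control to 670 and 250 counts after co-culture.

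The library profile most like that of NEDD9 was sought over 17222 genes with a mean of at least 1 CPM, by the root mean square difference of log2 CPM centred on the control mean over the 5 libraries. The 5 nearest genes were ITGA5 at 0.32, the antisense RNA AC021534.1 at 0.55, BHLHE40 at 0.58, PCP4L1 at 0.68 and STC1 at 0.73. In each of them control replicate 1 was the lowest library, control replicate 3 was the highest control, and co-cultured replicate 1 was above co-cultured replicate 2. NEDD9 had the same order, and the genes were picked for their likeness to it, so nothing further is read from this. ITGA5, the alpha subunit of the fibronectin receptor, had 15, 35 and 46 counts in control and 497 and 259 after co-culture. Its opposite strand took 40.0% to 52.1% in control and 5.15% and 5.13% after co-culture.

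Beyond the 10 genes, 138 partner genes of the focal adhesion were listed from general knowledge in 5 groups, of which 4 are described one by one. The lists were drawn up with earlier results of these data known, so the shares called are given as a description only. The test could be made for 123 of them, of which 46 were called higher (37.4%, against 18.4% of all genes), 11 lower (8.94%, against 15.0%) and 66 not called. Their median log2 fold change was 0.18, against -0.03 over all genes. Their median level of 45.0 CPM was also above the 11.7 CPM of all genes tested, and the part of that in the counts called was not tested. The number higher was 28 without co-cultured replicate 1, and the number lower was 7 without control replicate 3, 4 without co-cultured replicate 1 and 5 without co-cultured replicate 2. Adjusted p-values in the rest of the text come from this edgeR fit and were adjusted over all 20360 genes.

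**Figure D5:**
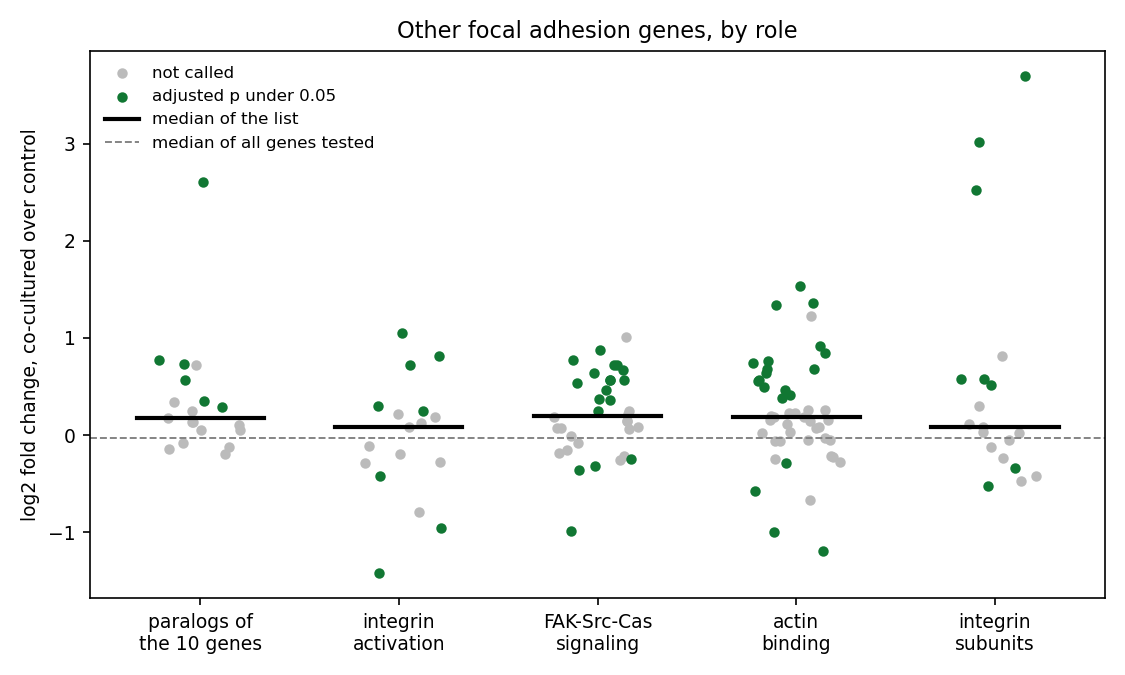
Co-cultured against control cells, as log2 fold changes, for the tested partner genes, 1 point a gene, in a column for each of 4 groups and a further column for the integrin subunits. Green points were called at an adjusted p under 0.05, thick lines are medians, which run from 0.08 for integrin activators to 0.20 for signaling partners, and the dashed line is the median of all genes at -0.03.

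Of the 25 paralogs of the 10 genes, 19 could be tested, 6 rose (31.6%, against 18.4% of all genes) and none fell (against 15.0%). Of these 6, 5 are described here. AJUBA, a LIM protein of the zyxin family, rose from 0.538 ± 0.247 to 3.30 ± 0.102 CPM (SD, n = 3 and n = 2, log2 fold change 2.61, standard error 0.36, adjusted p = 0.000825). CTNNA1, alpha-catenin, which resembles vinculin and links cadherins to actin, rose from 165.5 ± 3.16 to 274.1 ± 10.7 CPM (SD, n = 3 and n = 2, log2 fold change 0.73, standard error 0.07, adjusted p = 0.000186). FLNC, the muscle filamin, rose by 0.78 on the log2 scale (adjusted p = 0.0126), but the call was lost without co-cultured replicate 1 (0.43, adjusted p = 0.185). LIMD1, of the zyxin family, rose by 0.57 (adjusted p = 0.00610), and its adjusted p was 0.0803 without the same library. LPP, also of the zyxin family, was at 0.28 (adjusted p = 0.0177), and its call was lost under upper-quartile normalisation (adjusted p = 0.0515) and without control replicate 2 (adjusted p = 0.0570), co-cultured replicate 1 (adjusted p = 0.169) or co-cultured replicate 2 (adjusted p = 0.0786).

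The other 13 tested paralogs were not called. The kinase PTK2B had a log2 fold change of 0.05, TGFB1I1 and LPXN, of the paxillin family, 0.06 and -0.14, and TLN2 0.10, the last called only without control replicate 1 (0.22, adjusted p = 0.0142). LMCD1, a close relative of testin, was at 0.34 (adjusted p = 0.0544), and was called with median-ratio normalisation (adjusted p = 0.0482) and without control replicate 1 (adjusted p = 0.00492). PRICKLE1, PRICKLE2 and PRICKLE3, which share the testin domain layout, were at 0.73, 0.18 and 0.25. FBLIM1, WTIP, CTNNA2, CTNNA3 and CTNNAL1 had values of -0.09, -0.20, 0.13, -0.13 and 0.14. The other Cas family genes, EFS and CASS4, reached no more than 10 counts and were not tested, as were ACTN2, ACTN3, ACTN4 and TRIP6.

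Among 17 tested integrin activators and adaptors, 5 rose and 3 fell (median log2 fold change 0.08). These were 29.4% and 17.65% of the group, against 18.4% and 15.0% of all genes. The parvins bind integrin-linked kinase and actin, and PARVG fell from 257.0 ± 15.9 to 132.2 ± 14.7 CPM (SD, n = 3 and n = 2, log2 fold change -0.96, standard error 0.10, adjusted p = 0.000186). FERMT2, a kindlin that activates integrins together with talin, rose from 13.8 to 28.7 CPM (1.06, adjusted p = 0.000244). RSU1, which binds the integrin-linked kinase complex, and the small GTPase RAP1A, which brings talin to integrins, rose by 0.82 and 0.73 (adjusted p = 0.00209 and 0.000581). FERMT3, the kindlin of blood cells, was named after its values were seen and fell from 6.01 to 2.26 CPM (-1.42, adjusted p = 0.00421), a call lost without co-cultured replicate 1 (-1.14, adjusted p = 0.0659).

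Among 34 tested signaling partners, 14 rose (41.2%, against 18.4% of all genes) and 4 fell (11.8%, against 15.0%), with a median of 0.20. The Src family kinases FYN and YES1, which phosphorylate focal adhesion kinase and the Cas proteins, rose from 118.8 to 218.4 CPM (0.88, adjusted p = 9.49e-05) and from 348.8 to 542.2 CPM (0.64, adjusted p = 0.000455). The phosphatases PTPN11 and PTPN12, of which the second acts on Cas proteins, rose by 0.73 and 0.67 (adjusted p = 0.000418 and 0.000760). GRB7, an adaptor of focal adhesion kinase named after its values were seen, fell from 37.6 to 19.0 CPM (-0.99, adjusted p = 0.000933).

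The 46 tested genes of actin binding and contraction had 16 that rose and 4 that fell, with a median of 0.19. These were 34.8% and 8.70% of the group, against 18.4% and 15.0% of all genes. CSRP2, a LIM protein of actin bundles, rose from 21.5 ± 0.761 to 55.0 ± 9.87 CPM (SD, n = 3 and n = 2, log2 fold change 1.36, standard error 0.12, adjusted p = 8.97e-05). MYLK, the kinase of myosin light chain, rose from 9.84 to 24.9 CPM (1.34, adjusted p = 0.000161), and by 0.59 with counts regardless of strand. The strand opposite to MYLK took 76.9% to 79.3% of its reads in control and 64.2% and 59.4% after co-culture. PDLIM5 and LIMA1, LIM proteins of actin filaments, rose by 0.85 and 0.68 (adjusted p = 0.000237 and 0.000236). Some actin genes went the other way, named here after their values were seen. ACTG1, cytoplasmic gamma-actin, fell from 535.5 ± 103.0 to 268.5 ± 0.0513 CPM (SD, n = 3 and n = 2, log2 fold change -0.996, adjusted p = 0.000944), while ACTB, cytoplasmic beta-actin, had 1220, 784.3 and 736.2 CPM in control and 749.8 and 762.2 CPM after co-culture (-0.27, adjusted p = 0.301). TAGLN, an actin-binding protein of smooth muscle, fell by 1.20 on the log2 scale (adjusted p = 0.0151), a call lost without co-cultured replicate 1 (adjusted p = 0.0958) and without co-cultured replicate 2 (adjusted p = 0.117).

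Of the 26 integrin subunit genes, 19 could be tested, 6 rose and 2 fell, with a median of 0.09. The shares were 31.6% and 10.5%, against 18.4% and 15.0% of all genes. ITGA5 rose from 1.70 ± 0.806 to 22.1 ± 7.11 CPM (SD, n = 3 and n = 2, log2 fold change 3.70, standard error 0.32, adjusted p = 9.35e-05), and by 2.88 on the log2 scale with counts regardless of strand. ITGAM and ITGAX, alpha subunits of leukocyte integrins, rose from 0.727 to 4.21 CPM (2.52, adjusted p = 0.000236) and from 0.423 to 3.46 CPM (3.02, adjusted p = 0.000874). ITGB2, a beta subunit named after its values were seen, had 3, 5 and 11 counts in control and 9 and 6 after co-culture. It was not tested. ITGAV, the alpha subunit of vitronectin receptors, rose from 67.7 to 100.8 CPM (0.58, adjusted p = 0.000943). The genes that fell, named after their values were seen, were ITGA6 and ITGA2. ITGA6 fell from 132.0 to 104.5 CPM (-0.34, adjusted p = 0.0106) and ITGA2 from 8.74 to 6.08 CPM (-0.52, adjusted p = 0.0482).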

How the data were processed

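RNA was taken from 5 NCI-H209 samples, 3 control and 2 co-cultured, and sequenced from directional libraries depleted of rRNA. The authors deposited, for each library, whole-number read counts per gene as STAR writes them, without normalization. The submitters' notes name CASAVA 1.8, STAR 2.6.1b, DESeq2 and GRCh38. From their comparison table, gene names were taken, and its means, fold changes and p-values were not used. Of 64837 entries, 58780 were in GENCODE release 29 and 6057 were outside it. Counts of the expected strand (92.3% to 93.1% of the reads on genes) were used, 15457071 to 19157348 per library.

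Genes kept by filterByExpr of edgeR 4.0.16 (R 4.3.3, limma 3.58.1) were normalised by TMM and fitted with its two-sided quasi-likelihood test, and p-values were adjusted over 20360 genes (Benjamini-Hochberg). Dispersion was 0.0103 in common (10.2% as a coefficient of variation). Each standard error is the log2 fold change over the square root of F. With 3 libraries against 2, the spread is estimated from few samples. On simulated counts for 19787 genes of this comparison, 76 of 100 genes changed by 1 on the log2 scale and 97 of 100 changed by 2 were called, with 12 unchanged genes. Every simulated gene was given the common dispersion, while real genes differ in spread, so these numbers do not carry over to genes with a wider spread.

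The 10 genes and all gene lists were chosen with earlier results of these data known. Genes named are the 10, every tested paralog, up to 4 genes per other list with the smallest p among those called, averaging at least 1 CPM and without overlap between groups, the 5 profiles nearest to NEDD9, and cell type markers, and those stated as named after their values were seen. The alternatives comprised DESeq2 1.42.0, normalisation by median ratio or upper quartile, keeping genes with 1 count anywhere or with 10 counts everywhere, unstranded counts, a replicate block and each library left out. Leaving out genes with over 25% of reads on the opposite strand in every control library was added after the data were seen. Some listed genes and 1 gene group are not reported here. Plots were drawn with matplotlib 3.10.9.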

Additional observations from a re-analysis of the deposited data

How the results depend on the processing

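With each library left out in turn, the number of all genes called ran from 1749 to 5295 higher and from 985 to 4602 lower, against 3750 and 3059, and that of partner genes from 28 to 61 higher and from 4 to 16 lower, against 46 and 11. Under the other alternatives the partner genes called ran from 37 to 48 higher and from 8 to 15 lower, and without genes rich in opposite-strand reads, an alternative chosen after the data were seen, they were 45 and 11. Whether the replicate numbers pair the libraries could not be told. Deviations from the group means had correlations of -0.114 and -0.067 in same-numbered libraries, over 2 pairs. With 2 co-cultured libraries, the deviations of the first are the exact opposite of those of the second, so these values cannot decide it. With the replicate block, 2771 genes were higher and 2053 lower, and 37 and 8 partner genes. Among the genes named, the calls of ACTN1, BCAR1, TLN1 and LPP were lost, while those of ITGA6 and ITGA2 were not followed.

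Some log2 fold changes of genes that were not called changed sign, and the cause was not tested. Under upper-quartile normalisation PTK2B was at -0.028 and TGFB1I1 at -0.022. TGFB1I1 was at -0.389 with unstranded counts and at -0.077 with the replicate block. PXN, at -0.026 in the main fit, was at 0.024 with the replicate block and ran from -0.103 to 0.057 with each library left out. With each library left out in turn, PTK2B ran from -0.041 to 0.188, TGFB1I1 from -0.074 to 0.147, CTNNA3 from -0.266 to 0.003 and WTIP from -0.425 to 0.188. Fold changes of genes with few counts, NEDD9, AJUBA, ITGAM and ITGAX among them, rest on few control reads.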
